A study of Ciona robusta with 7 samples.

Results

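Molecular chaperones and small heat shock proteins were followed in single cells of the juvenile heart and pharyngeal muscle lineage of the tunicate *Ciona robusta*. Genes were taken by their deposited orthologue-style names, those starting with HSP and a digit, HSPA, HSPB, HSPD, HSPE, HSPH, DNAJ, CCT and a digit, TCP1, BAG or UNC45, without HSPG2. This gave 61 of the 15231 genes of the table, of which 11061 carry a name. By a rule on names, 4 members were counted as linked to muscle, namely HSPB1 (KH.S455.4), HSP26/27 (KH.C11.493), UNC45A (KH.L17.2) and BAG3/4 (KH.C8.85). The other 57 were counted as general. The rule took small heat shock names, any UNC45 name and the joint name BAG3/4, and by itself shows no muscle role of these genes. The general members comprise 34 J proteins, 9 subunit genes of the chaperonin CCT, 5 HSP70 or HSP110 genes, 2 HSP90 genes, 2 further BAG genes, the mitochondrial chaperonin HSPD1 and 4 others. One of the others, TCP11L1/2, matched only through the first letters of its name. A pair of genes named HSP-16.1/11/2/41/48/49 (KH.S404.8 and KH.S404.12) carries small heat shock names but falls outside the name rule because of the hyphen, and is given only where a result touches it. The gene Ci-TCP1epsilon, named after a CCT subunit, also falls outside the rule because of the first letters of its name. It is in none of the CCT counts and sums below.

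The cells were sorted as Mesp+ from stage 38 juveniles, which are labelled as TVC progeny and belong to the cardiopharyngeal lineage, the source of heart and pharyngeal muscle. Full-length poly(A) libraries were made by SMART-seq2 on 7 plates, numbered 2 to 8, which form 1 group with no treatment or control. The labels name neither the reporter behind the sort, nor alleles, nor how many juveniles were pooled, so the spread between plates may be technical. Of 672 barcodes, 315 with at least 1000 genes were kept, against 386 cells stated by the study and 387 barcodes with at least 200 genes.

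Chaperones bind proteins that are not yet, or no longer, folded. HSP70 works in cycles with J proteins, which deliver clients and start ATP hydrolysis, and with BAG proteins, which release the nucleotide. HSP90 acts later on a narrower set of clients, and UNC45 hands it the myosin head. CCT is the ring-shaped chaperonin of the cytosol that folds actin and tubulin. Small heat shock proteins hold unfolding proteins without ATP, and in vertebrates several of them and BAG3 are abundant in striated muscle and sit at the Z-disc.

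Kept cells held a median of 148206 reads and 2267 genes, with 3318 to 2428125 reads per cell, and plates held 13 to 85 kept cells. Cells were put into classes by marker genes, none of which is a member. The sum of MYH1/2 and TPM1/2 (KH.C3.661) at 1000 CPM (counts per 1000000 reads of a cell) or more gave 40 cells of a heart muscle gate. The sum of CACNA1C, SLC8A1/2/3, LDB3, SLC6A8 and BVES at 500 CPM or more gave 70 cells of a pharyngeal muscle gate. The remaining cells comprised 2 of an early pharyngeal gate, too few for a comparison, and 203 in no muscle gate. Of these 203, 43 passed a heart mesoderm gate (FOXF1/2 and MSX1/2/3), 91 an EBF gate (EBF1/2/3/4, the pharyngeal muscle determinant) and 69 neither. The troponin gene TNNT1/2/3 reached 1000 CPM in 35 of the 40 heart-gate and 57 of the 70 pharyngeal-gate cells. Median levels per cell of the heart regulator NKX2-3 were 327 CPM in the heart gate and 0 CPM in the pharyngeal gate, and those of EBF1/2/3/4 were 7.59 and 434 CPM. Within 2 times of the threshold lay 18 cells at the heart gate and 58 at the pharyngeal gate. Which cells fall in the pharyngeal class thus depends on the threshold. Whether they form a separate population was not tested.

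The members together took 9937 ± 1866 CPM (SD, n = 7 plates), from 6846 CPM in plate 6 to 12536 CPM in plate 3. HSP90AB1, the cytosolic HSP90, took 20.9% to 33.1% of this and was read in 314 of the 315 cells. Reads were not divided by gene length, so levels were not ranked between genes. Across the set, 24 members had a read in at least 50% of cells, 2 in at least 90% and 7 in under 10%. Mean levels were at least 100 CPM for 21 members and under 10 CPM for 11, and every member had reads. The heat map of members by class shows this wide range, with the strongest contrast between columns in the small heat shock rows.

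**Figure D1:**
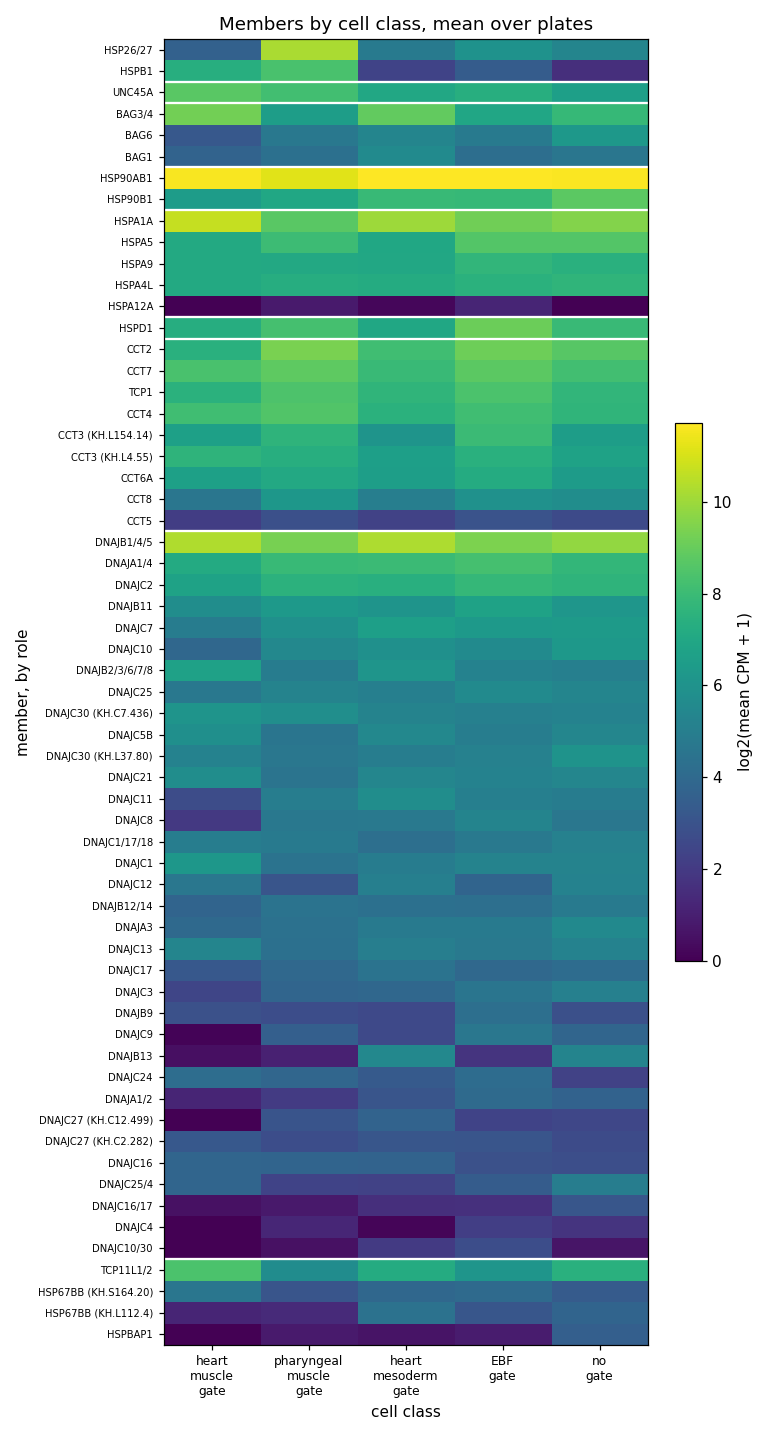
Mean level of each of the 61 members, as log2(mean CPM + 1) over plates with at least 5 cells (colour), in 5 cell classes (columns), with white lines between role groups. HSP26/27 stands out in the pharyngeal muscle column with 1213 CPM, against 11.4 CPM in the heart muscle column.

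The first question was which members marked pharyngeal muscle. Both small heat shock genes and the myosin chaperone UNC45A were higher in pharyngeal-gate cells than in cells of no muscle gate. The levels of the 5 plates did not overlap for any of these 3 genes. Here and below, the share of all genes without such overlap was not computed, so a lack of overlap is a description only. HSP26/27 stood at 1662, 1892, 454, 842 and 1215 CPM in the pharyngeal-gate cells of plates 2, 3, 4, 5 and 7. In cells of no muscle gate on the same plates it stood at 63.6, 92.8, 23.1, 20.1 and 22.1 CPM. The lowest pharyngeal plate was thus well above the highest plate of the reference cells. HSPB1, the second small heat shock gene, stood at 365, 375, 534, 237 and 107 CPM in the pharyngeal gate and at 0.935, 17.4, 3.98, 1.18 and 7.55 CPM in the reference. It was thus low in cells of no muscle gate on all 5 plates. UNC45A stood at 340, 298, 324, 267 and 215 CPM against 110, 113, 188, 140 and 129 CPM.

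Reads were summed per plate and class, 65 pharyngeal-gate against 182 reference cells on 5 plates, and compared with edgeR's quasi-likelihood test with the plate as a block. A gene passed at a Benjamini-Hochberg adjusted p under 0.05 over all 8219 genes tested. The log2 fold change was 5.36 ± 0.34 (SE, adjusted p = 4.79e-05) for HSP26/27, 6.57 ± 0.77 (adjusted p = 0.000585) for HSPB1 and 1.54 ± 0.25 (adjusted p = 0.00497) for UNC45A in this edgeR fit. Of the 57 general members, 52 were tested, and 1 was higher and 1 lower. Over all genes tested 3.1% passed, 2.07% as higher and 1.03% as lower, and the median log2 fold change of the general members was -0.17 beside -0.25 for all genes. BAG3/4, the fourth muscle-linked member, was at 92.3 ± 31.7 CPM against 202 ± 44 CPM and lower on 5 of 5 plates, but did not pass (log2 fold change -0.71 ± 0.26, edgeR adjusted p = 0.23). With library totals in place of TMM factors it passed as lower (-1.16, adjusted p = 0.0464).

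The calls of HSP26/27 and HSPB1 held in all 16 alternative analyses, while UNC45A held in 15 and missed with stricter gates (edgeR adjusted p = 0.0716). In plate 3, a single cell gave 81.2% of the reads of the pharyngeal gate, and without that plate the log2 fold changes of the 3 genes were 5.58, 7.17 and 1.55. The mannose-binding lectin gene MBL1/2 (KH.C5.404), counted among blood or immune markers, moved with this gate, at a mean of 2396 CPM per pharyngeal-gate cell against 63.0 CPM in EBF-gate and 10.2 CPM in heart mesoderm cells. The 5 genes of that list summed to 214 to 2355 CPM in pharyngeal-gate cells and to 7.81 to 73.3 CPM in cells of no muscle gate, with none of the 5 and 1 of the 5, respectively, without a read. Nearly all of this sum was MBL1/2 (KH.C5.404), and the macrophage receptor genes of the list were at low levels. MRC1 (KH.C4.616) was at a mean of 1.65 CPM per pharyngeal-gate cell against 3.29 CPM in EBF-gate cells, and MRC1/2 at 1.36 against 2.55 CPM. The part of MBL1/2 in the result was not tested.

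**Figure D2:**
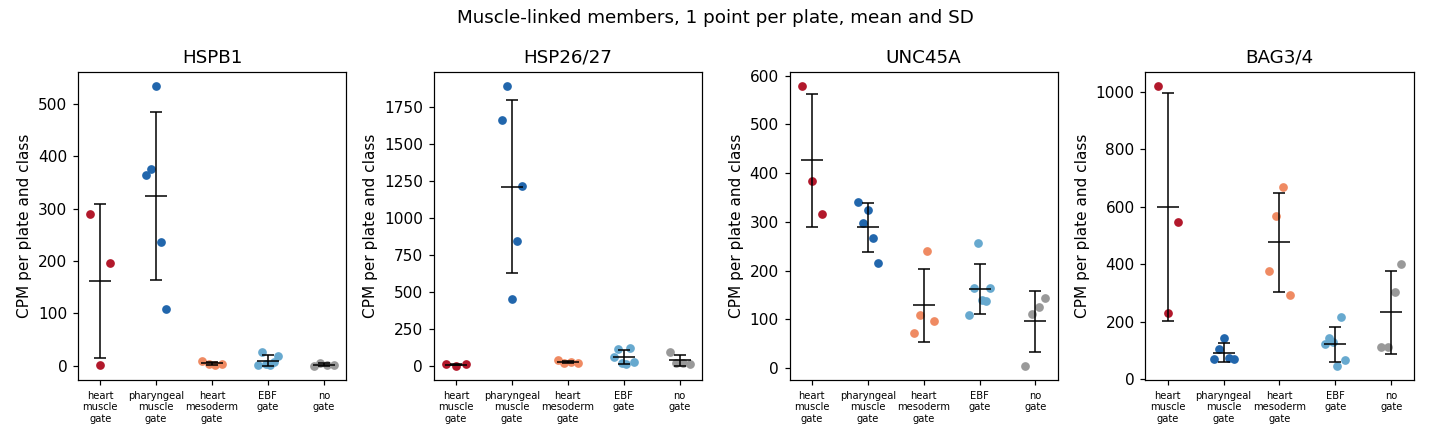
Level of the 4 muscle-linked members in CPM (vertical axis) in each plate with at least 5 cells of a class (points), with the mean and SD (bars), for 5 cell classes. The pharyngeal muscle points of HSP26/27, 454 to 1892 CPM, lie above all points of the other classes.

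The small heat shock signal was concentrated in pharyngeal-gate cells that also carried sarcomere transcripts. Among the 57 cells with TNNT1/2/3 at 1000 CPM or more, the median level of HSP26/27 was 888 CPM and that of HSPB1 158 CPM. Among the 13 cells below, the medians were 6.21 and 0 CPM, and 3 of these 13 had any HSPB1 read. Those 13 cells had a median of 6153 CPM over the 43 sarcomere genes, against 93922 CPM in the 57. TNNT1/2/3 itself belongs to these 43 genes, so part of that gap follows from the way the cells were split. This split was added after the values were seen and carries no test. With only the 57 cells in the gate, the log2 fold changes against cells of no muscle gate were 5.74 for HSP26/27 and 7.34 for HSPB1.

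Both small heat shock genes were often read in the same cell. To compare cells at 1 depth, each was thinned to 20000 reads, which kept 304 cells and left out 11. At this depth HSPB1 was read in 40 of 69 pharyngeal-gate cells (58.0%, exact 95% interval 45.5% to 69.8%) and HSP26/27 in 47 (68.1%, 55.8% to 78.8%), and both in 37. Of 86 EBF-gate cells, 4 had HSPB1, 25 had HSP26/27 and 1 had both. Of 42 heart mesoderm cells, 1 had HSPB1 and 11 had HSP26/27. HSP26/27 was thus read in some cells of every class, from 17.9% of the cells in no gate upwards, while HSPB1 was read in at most 5.97% of the cells of each class outside the muscle gates. Without thinning, HSPB1 was read in 53 of 70 pharyngeal-gate, 36 of 91 EBF-gate and 10 of 43 heart mesoderm cells. Median depths were 175784, 196700 and 97558 reads in these 3 classes. The intervals cover counting error only and treat the cells of all plates as independent.

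Heart muscle cells were compared with the same kind of reference cells, shared in part with the comparison above, on plates 4, 5 and 7 (33 against 151 cells). HSP26/27, the clearest pharyngeal member, was not higher in them on any plate. It stood at 14, 4.60 and 15.4 CPM in heart-gate cells and at 23.1, 20.1 and 22.1 CPM in cells of no muscle gate, lower on each plate without passing (log2 fold change -1.02 ± 1.86, edgeR adjusted p = 0.853). HSPB1 stood at 290, 1.15 and 195 CPM against 3.98, 1.18 and 7.55 CPM, so it was far higher on plates 4 and 7 and level on plate 5. It passed the edgeR test (4.26 ± 1.18, adjusted p = 0.0147), but not without plate 4 (adjusted p = 0.764) or without plate 7 (adjusted p = 0.638), and passed in 7 of 11 alternatives. Per cell, 21 of the 40 heart-gate cells had an HSPB1 read, with a median of 1.79 CPM and a highest cell at 2467 CPM. That cell was on plate 7, where the next stood at 1273 CPM, and the highest cell of plate 4 stood at 932 CPM. The levels of plates 4 and 7 thus came mostly from few cells. At 20000 reads, 12 of 38 heart-gate cells had HSPB1, 7 had HSP26/27 and 2 had both.

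UNC45A was at 579, 384 and 316 CPM in heart-gate cells against 188, 140 and 129 CPM in the reference, with no overlap between the groups. Its log2 fold change was 1.52 ± 0.51 (edgeR adjusted p = 0.0886, and 0.0448 with another set of size factors, RLE). In the pharyngeal comparison it was 1.54 ± 0.25, on plates 2, 3, 4, 5 and 7. The median over all genes was -1.22 in the heart fit and -0.25 in the pharyngeal fit, so the 2 values have different baselines. BAG3/4 was at 1020, 230 and 546 CPM against 213, 206 and 255 CPM, higher on 3 of 3 plates with overlapping groups and not past the test (1.24 ± 0.46, edgeR adjusted p = 0.157). Without plate 5 it passed (1.79, adjusted p = 0.00355). Single heart-gate cells varied widely in BAG3/4, as given below for the contrast between the muscles. SMYD1 is a lysine methyltransferase of striated muscle that in zebrafish works with Unc45b and Hsp90a in sarcomere assembly. Of 40 chaperone partners 39 were tested here, and SMYD1 alone passed. It reached 1158, 904 and 1019 CPM in heart-gate cells against 82.3, 17.6 and 77.1 CPM (log2 fold change 4.45 ± 0.46, edgeR adjusted p = 2.99e-19). SMYD1 also belongs to the sarcomere list.

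Among the 57 general members, 54 were tested in this heart comparison, and 1 was higher and 2 were lower, with 2.92% of all 9129 genes passing, 1.52% as higher and 1.4% as lower. HSPA1A, the stress-inducible HSP70, stood at 2910, 867 and 1199 CPM in heart-gate cells against 761, 593 and 604 CPM (log2 fold change 1.22 ± 0.30, edgeR adjusted p = 0.00354). HSP90B1, the HSP90 of the endoplasmic reticulum, stood at 14, 196 and 55.7 CPM against 297, 598 and 218 CPM (-2.49 ± 0.62, adjusted p = 0.00366). The CCT subunit gene CCT2 stood at 374, 12.7 and 136 CPM against 513, 454 and 333 CPM (-1.97 ± 0.58, adjusted p = 0.0287). The groups did not overlap for HSPA1A and HSP90B1 and did for CCT2. These changes stand beside a median of -1.22 over all genes in this fit. None of them passed without the plate block or when every cell was thinned to 20000 reads. HSPA1A missed without plate 4 (adjusted p = 0.76) and without plate 7 (adjusted p = 0.0567). HSP90B1 missed without plate 4 (adjusted p = 0.187), and CCT2 without plate 5 (adjusted p = 0.727) and without plate 7 (adjusted p = 0.0567). Over 12 alternatives HSPA1A passed in 5, HSP90B1 in 8 and CCT2 in 4.

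The contrast between the 2 muscles was taken directly, 33 heart-gate against 50 pharyngeal-gate cells on plates 4, 5 and 7. The plate values of HSP26/27 did not overlap, at 14, 4.60 and 15.4 CPM in the heart gate and 454, 842 and 1215 CPM in the pharyngeal gate. Its log2 fold change was -6.57 ± 0.65 (edgeR adjusted p = 1.64e-21), and the call held in all 13 alternatives. Single cells were not fully separated. Over all plates, 25 of 40 heart-gate and 58 of 70 pharyngeal-gate cells had an HSP26/27 read. HSPB1 and UNC45A did not pass. The log2 fold change of HSPB1 was -1.82 ± 0.78 (edgeR adjusted p = 0.235). It moved to -3.91 without plate 7 (adjusted p = 0.0284) and to -0.28 without plate 5, where it did not pass. That of UNC45A was 0.29 ± 0.55 (adjusted p = 0.908). BAG3/4 was higher in the heart gate, at 1020, 230 and 546 CPM against 143, 73.5 and 70.4 CPM (2.14 ± 0.59, adjusted p = 0.00794). The groups did not overlap, but BAG3/4 missed without plate 4 (adjusted p = 0.215), without plate 7 (adjusted p = 0.317) and with no filter on low counts (adjusted p = 0.0505). Single heart-gate cells ranged in BAG3/4 from 0 to 2756 CPM on plate 4, 0 to 1539 CPM on plate 5 and 6.13 to 1236 CPM on plate 7. The plate 7 cell at 1236 CPM alone gave 32.4% of the heart-gate reads of that plate. The heart-gate levels of BAG3/4 thus rest in large part on few cells.

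Of the 47 general members tested in this contrast, HSPA1A was higher in heart-gate cells and CCT2 lower, beside 4.83% of all 7178 genes passing, 2.19% as higher and 2.65% as lower. HSPA1A stood at 2910, 867 and 1199 CPM against 755, 168 and 91.4 CPM (log2 fold change 2.32 ± 0.45, edgeR adjusted p = 1.56e-05) and passed in 10 of 13 alternatives. It missed without plate 7 (adjusted p = 0.105), without the plate block (adjusted p = 0.143) and with lower gate thresholds (1.06, adjusted p = 0.254). CCT2 stood at 374, 12.7 and 136 CPM against 885, 515 and 341 CPM (-2.71 ± 0.61, adjusted p = 0.000451) and also passed in 10 of 13. It missed without plate 5 (-1.56, adjusted p = 0.0675), without the plate block (adjusted p = 0.274) and in DESeq2 (adjusted p = 0.0501). SMYD1 was again higher in the heart gate, at 1158, 904 and 1019 CPM against 423, 322 and 57.8 CPM (1.96 ± 0.51, adjusted p = 0.00433). The HSP-16 pair moved with BAG3/4 and HSPA1A. Its 2 genes had log2 fold changes of 2.31 ± 0.40 (KH.S404.8, edgeR adjusted p = 8.5e-07) and 1.92 ± 0.40 (KH.S404.12, adjusted p = 7.01e-05), with groups that overlapped.

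A list of genes taken as markers of tissue dissociation was also summed by class. Its plate range was higher in the heart gate than in the pharyngeal gate, and overlapped the ranges of the other classes. The 11 genes of that list, among them JUN, ATF3 and EGR1/4, summed to 2950 to 3787 CPM over the heart-gate plates, 2832 to 4033 CPM in heart mesoderm, 1231 to 2072 CPM in pharyngeal-gate cells, 747 to 3761 CPM in EBF-gate cells and 1574 to 3919 CPM in all cells of no muscle gate. In the heart gate 2 of the 11 had no read, and in the pharyngeal gate 1. BAG3/4 and HSPA1A are themselves heat shock targets in vertebrates, and the part of dissociation in their levels was not tested.

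**Figure D3:**
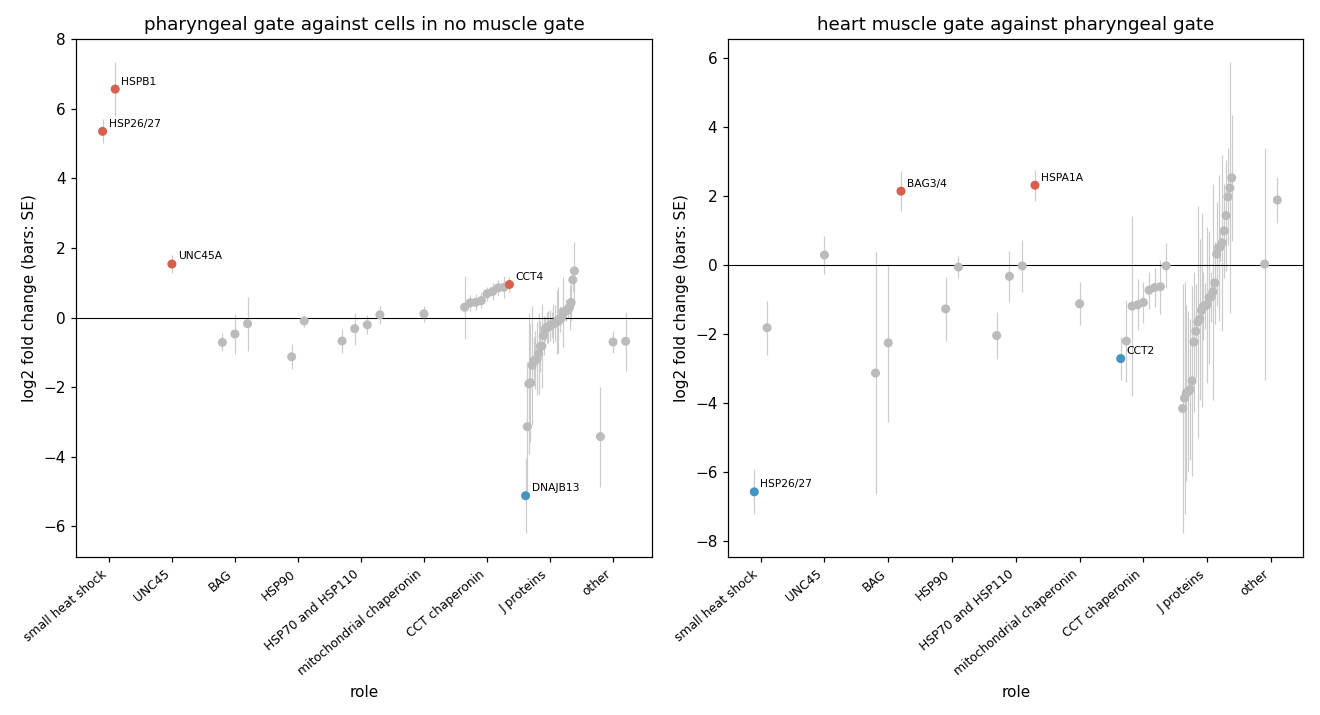
Log2 fold change (vertical axis, bars SE) of each member tested, by role (horizontal axis), for pharyngeal-gate cells against cells in no muscle gate (left) and heart-gate against pharyngeal-gate cells (right), with members that passed in red (higher) or blue (lower). In the left panel HSPB1 at 6.57 and HSP26/27 at 5.36 stand above all other members, and in the right panel HSP26/27 is lowest at -6.57.

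The CCT subunits form a general group of several abundant members. In pharyngeal-gate cells against cells of no muscle gate, all 9 subunit genes within the name rule had a positive log2 fold change, with a median of 0.69. Of the 9, 1 passed, CCT4 (0.95 ± 0.20, edgeR adjusted p = 0.0301). This sign depended on scaling, since with library totals in place of TMM factors 6 of 9 were positive, the median was 0.24 and CCT4 missed (adjusted p = 0.218). CCT4 stood at 420, 397, 449, 305 and 301 CPM in the pharyngeal gate and 293, 275, 268, 286 and 196 CPM in the reference, with no overlap. It missed when plate 2, 4, 5 or 7 was left out, with adjusted p from 0.0833 to 0.125, and passed in 8 of 16 alternatives, with adjusted p up to 0.373. CCT7, a further abundant subunit, stood at 437, 483, 642, 449 and 266 CPM against 356, 432, 444, 395 and 266 CPM and did not pass (0.69 ± 0.20, adjusted p = 0.117). PDCL3, a phosducin-like cofactor of CCT, was among the partner genes that passed, at 457, 344, 293, 235 and 123 CPM against 80.9, 56.7, 73.9, 60.8 and 56.5 CPM (2.48 ± 0.28, adjusted p = 0.00043). The other partner to pass of 38 tested was CHORDC1, a cochaperone of HSP90, at 258 ± 85 CPM against 126 ± 40 CPM (1.47 ± 0.30, adjusted p = 0.0223).

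Outside the muscle gates, heart mesoderm was compared with EBF-gate cells, on plates 3, 4, 5 and 7 (39 against 69 cells). BAG3/4 was higher in heart mesoderm, at 376, 567, 669 and 291 CPM against 144, 131, 45.4 and 67.2 CPM, with no overlap (log2 fold change 2.24 ± 0.48, edgeR adjusted p = 0.0126). The mitochondrial chaperonin HSPD1 was lower, at 154, 133, 158 and 51.4 CPM against 778, 334, 410 and 547 CPM (-2.21 ± 0.46, adjusted p = 0.0114). The CCT subunit gene CCT3 (KH.L154.14) was also lower, at 20.8, 106, 29.8 and 104 CPM against 299, 216, 244 and 264 CPM (-2.35 ± 0.57, adjusted p = 0.0291). All 9 CCT genes within the name rule had a negative log2 fold change under each of 3 scalings. Their median was -1.21 beside -0.22 for all genes, and 1 of the 9 passed. Summed over the 9, CCT stood at 1194 ± 304 CPM in heart mesoderm (n = 4 plates) and 2258 ± 647 CPM in EBF-gate cells (n = 6 plates).

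In this fit 57 members were tested, 1 was higher and 2 were lower, beside 3.62% of all 7264 genes passing, 2.29% as higher and 1.34% as lower. Neither small heat shock gene nor UNC45A passed, with edgeR adjusted p of 0.926 for HSP26/27, 0.858 for HSPB1 and 0.646 for UNC45A. SMYD1 passed, at 346, 201, 91.1 and 136 CPM against 124, 70.7, 8.40 and 5.33 CPM (2.62 ± 0.64, adjusted p = 0.0296), and was the only one of 36 partner genes tested to do so. BAG3/4 missed without plate 5 (adjusted p = 0.052). HSPD1 missed without plate 3 (adjusted p = 0.0519) and without plate 7 (adjusted p = 0.074), and CCT3 (KH.L154.14) without plate 3, 5 or 7 (adjusted p from 0.0529 to 0.0987). Over 14 alternatives BAG3/4 and HSPD1 each passed in 11, with adjusted p up to 0.135 and 0.074, and CCT3 (KH.L154.14) in 6, with adjusted p up to 0.821. None of the 3 passed with cells of 2000 or more genes. A single cell gave 44.7%, 67.2%, 61.4% and 38.0% of the heart mesoderm reads of plates 3, 4, 5 and 7. Those cells stood at 186, 757, 802 and 207 CPM of BAG3/4. On plate 3 a single cell also gave 59.5% of the EBF-gate reads. The plate levels in this comparison thus weigh few cells heavily and are not averages over cells.

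**Figure D4:**
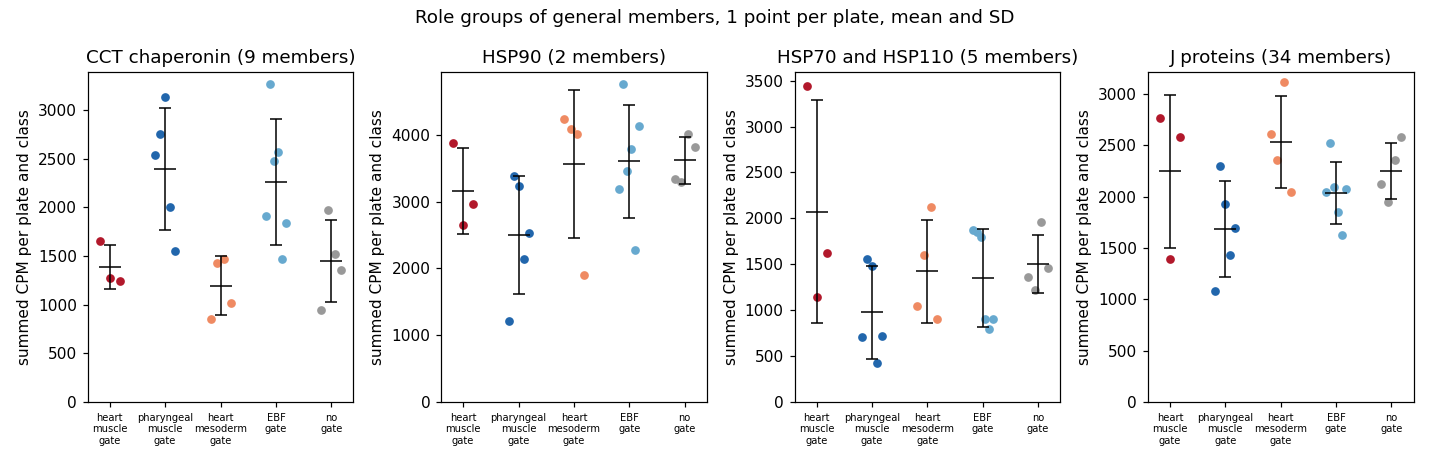
Summed CPM (vertical axis) of 4 role groups of general members in each plate with at least 5 cells of a class (points), with the mean and SD (bars), for 5 cell classes. The CCT sum of heart mesoderm, 855 to 1467 CPM, lies at or below the lowest EBF-gate plate of 1468 CPM, while the other 3 groups overlap between all classes.

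The summed levels of the HSP90, HSP70 and J protein groups overlapped between all classes. HSP90AB1 stood at 3076 ± 724 CPM in heart-gate (n = 3 plates), 2375 ± 818 in pharyngeal-gate (n = 5), 3327 ± 1071 in heart mesoderm (n = 4) and 3372 ± 805 CPM in EBF-gate cells (n = 6), and passed in none of the 4 comparisons. HSPA5, the HSP70 of the endoplasmic reticulum, was at 139 ± 135 CPM in heart-gate cells and 386 ± 204 CPM in cells of no muscle gate on the same 3 plates, without passing (log2 fold change -1.75 ± 0.64, edgeR adjusted p = 0.144). DNAJB1/4/5, named after the J proteins that serve cytosolic HSP70, was read in 307 of 315 cells. It stood at 1665, 770 and 1427 CPM in heart-gate and 834, 464 and 755 CPM in pharyngeal-gate cells of plates 4, 5 and 7, higher on each plate without passing (0.54 ± 0.42, adjusted p = 0.72). DNAJA1/4 was at 142 ± 83 and 225 ± 18 CPM in the same cells and did not pass (adjusted p = 0.485). BAG6, which acts on proteins bound for membranes or degradation, had 29.3 ± 10.4 CPM over all kept cells (n = 7 plates) and passed in none of the comparisons.

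Of the 34 J proteins, DNAJB13 alone passed in any comparison. In mammals it is a radial spoke protein of cilia and flagella. It stood at 0, 4.88, 0.149, 0.354 and 0.226 CPM in pharyngeal-gate cells and 3.27, 42.5, 9.12, 56.1 and 12.8 CPM in cells of no muscle gate, lower on 5 of 5 plates with overlap between groups (log2 fold change -5.12 ± 1.09, edgeR adjusted p = 0.029). It missed whichever plate was left out, with adjusted p from 0.0513 to 0.195, and passed in 5 of 15 alternatives, with adjusted p up to 0.456. The 39 ciliary genes of a fixed list summed to 78.1 to 240 CPM in pharyngeal-gate cells and 128 to 1193 CPM in cells of no muscle gate, with 6 of the 39 and none without a read. Their part in the DNAJB13 result was not tested. Among the 4 others, TCP11L1/2 was at 649, 176 and 185 CPM in heart-gate cells against 126, 133 and 88.5 CPM in cells of no muscle gate and did not pass (1.34 ± 0.58, adjusted p = 0.224). HSP67BB (KH.S164.20) had 13.4 ± 5.3 CPM over all kept cells (n = 7) and passed in none of the comparisons.

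A further description set each member against the summed sarcomere reads across the thinned cells of each plate, all classes together. The sarcomere list shares MYH1/2, TPM1/2 (KH.C3.661) and LDB3 with the heart and pharyngeal muscle gates. The correlations are therefore not separate from the class comparisons above. The 46 members read in at least 10% of these cells were included, and the points share plate, depth and cell sorting. HSPB1 had a median Spearman rho of 0.53 over 7 plates, UNC45A 0.38 and HSP26/27 0.37, and each was positive on 7 of 7 plates. BAG3/4 had 0.18 and was positive on 4 of 7. None of the 42 general members reached 0.3, and their highest median was 0.11. At -0.3 or below stood 4 general members, HSPD1 at -0.39, HSP90AB1 and DNAJB11 at -0.35 and CCT7 at -0.33. Over 4987 genes outside the sarcomere list, 107 were at 0.3 or above and 186 at -0.3 or below, with a median of -0.06. CPM are shares of a cell's reads, and sarcomere genes took a median of 75352 CPM in heart-gate cells.

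**Figure D5:**
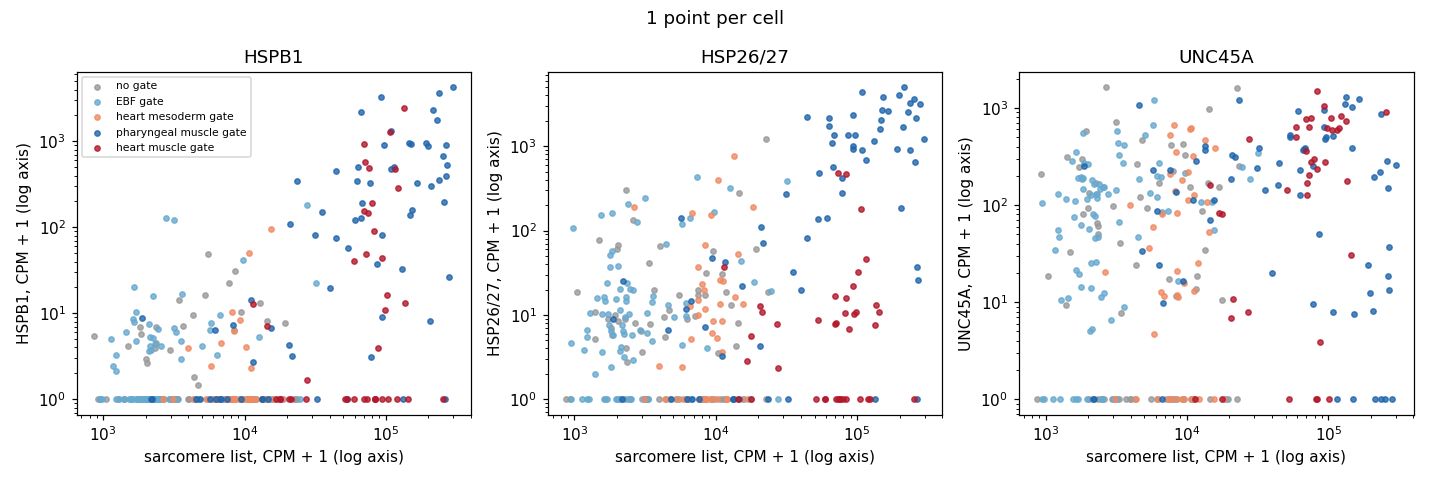
Level of HSPB1, HSP26/27 and UNC45A in each of the kept cells (vertical axes, CPM + 1, log scale) against the summed level of the sarcomere list (horizontal axis, CPM + 1, log scale), coloured by class, unthinned. HSP26/27 is high in pharyngeal-gate cells rich in sarcomere reads, with a highest cell at 4968 CPM, while most heart-gate cells of like sarcomere level lie near the axis, with a median of 6.63 CPM.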

How the data were processed

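The authors deposited a table of raw counts, whole reads per KH2013 gene model and cell barcode. Per the submitters' processing notes reads were counted with featureCounts, and per the file headers they were aligned with TopHat, read 2 of each barcode of a plate. Versions, strand and filters are not given in the sources used here. The 5 reporter rows were left out. Counts have no molecular identifiers. The intervals on shares of cells are exact binomial intervals over cells pooled across plates. They treat cells as independent and leave out the spread between plates and animals.

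Barcodes with at least 1000 genes were kept and no doublet caller was run. Plates shared 395 barcodes in 16 plate pairs, with median profile correlations of 0.411 for equal and 0.405 for different barcodes, and these were treated as different cells. CPM were computed over all genes of the table. Classes were cut by marker genes, which were left out of the tests. The reads of a class were added up within a plate wherever both sides had 5 cells or more. These sums went into edgeR 4.0.16 under R 4.3.3 (limma 3.58.1), after filterByExpr and TMM, in a model holding plate and class. The prior degrees of freedom were infinite in both comparisons with heart-gate cells, so their SE pool the spread over all genes. Both muscle gates were compared with the same reference cells on plates 4, 5 and 7, and the pharyngeal gate also with those of plates 2 and 3. These comparisons are thus not independent.

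Named in full are the muscle-linked members, the 2 members of highest CPM in each role group and called members of 1 direction in every plate; HSPB1 in the heart is an exception to the last. Of the lists counted, 4 neural genes summed to 58.7 to 73.1 CPM in heart-gate and 14.3 to 125 CPM in pharyngeal-gate cells, 1 notochord or endoderm gene to at most 3.45 and 1.95 CPM, and no epidermal gene was matched. Heart regulators (5 genes) averaged 935 and 10.1 CPM, and pharyngeal regulators (8 genes) 159 and 775 CPM. Members and lists were chosen with earlier results of these data known. Alternatives were DESeq2 1.42.0, RLE factors, library totals, no filter, no block, each plate left out, other gates, other cell minimums and thinned cells. Library totals and the troponin requirement were added after seeing the data. Scripts were tested on simulated data. Rank correlations used scipy 1.17.1 under Python 3.11.15.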

Additional observations from a re-analysis of the deposited data

Results flagged for a closer look

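Among 81 sets of plate values checked for a plate apart from the rest, 8 were flagged, where chance flags about 5%. DNAJC27 (KH.C2.282) was at 27.01 CPM in plate 8 and at 3.55 to 7.63 CPM in the other plates. DNAJC25 was at 5.10 CPM in plate 8 and at 33.3 to 52.2 CPM elsewhere. DNAJC13 was at 51.4 CPM in plate 3 and at 2.62 to 20.02 CPM elsewhere. DNAJC1/17/18 was at 11.8 CPM in plate 2 and at 26.8 to 36.5 CPM elsewhere. DNAJC10/30 was at 8.90 CPM in plate 2 and at no more than 3.25 CPM elsewhere. HSPBAP1 was at 3.55 CPM in plate 3 and at no more than 1.43 CPM elsewhere. HSP26/27 was at 95.1 CPM in the plate 3 cells that passed no gate and at 16.0 to 23.3 CPM in 3 other plates. HSPB1 was at 17.4 CPM in the plate 3 cells of no muscle gate and at 0.935 to 7.55 CPM in the 6 other plates.

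The 72 barcodes with at least 200 but fewer than 1000 genes, left out above, held 5436 reads of members, or 3596 CPM summed, against 9937 CPM in kept cells.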

How the results depend on the processing

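Counts of members called were compared with 4 for heart muscle, 5 for pharyngeal muscle, 4 between the muscles and 3 for heart mesoderm against EBF cells. Without the plate block (no replicate block) they were 0 for heart muscle and 2 between the muscles, 4 for pharyngeal muscle and 2 for heart mesoderm. With cells thinned to 20000 reads they were 0 for heart and 3 for pharyngeal muscle. With lower gate thresholds heart muscle had 2, and with higher ones pharyngeal muscle had 2 and heart mesoderm 1. Plates of at least 3 cells gave 2 for heart and 3 for pharyngeal muscle, DESeq2 gave 8 for pharyngeal muscle (29.1% of its adjusted p were NA), no filter gave 5 for heart mesoderm, and cells of 2000 or more genes gave 0 there. Leaving out each plate in turn gave 1 to 4, 3 to 4, 3 to 4 and 1 to 3. The summed level of the members ranged from 9504 to 10453 CPM when 1 plate was left out.

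Directions turned, all without a call, for UNC45A between the muscles with lower gates (-0.20), and in heart mesoderm for HSP26/27 with lower gates (0.12), higher gates (0.30) and thinned cells (0.31) and for UNC45A with thinned cells (0.0099). The causes were not tested. The median log2 fold change of all genes moved from -1.22 to -1.11 with RLE factors in heart muscle, from -0.25 to -0.70 with library totals in pharyngeal muscle, from -0.67 to -0.32 between the muscles and from -0.22 to -0.10 with RLE factors in heart mesoderm. With library totals, 48.8% of all calls were higher in pharyngeal muscle, against 66.7% with TMM, and 58.6% against 45.2% between the muscles. The early pharyngeal gate, with 2 cells, was not compared, and cells of 2000 or more genes left too few plates for either comparison of heart muscle. Beside the counts above, of the values of named members 5 changed sign, 65 lost a call, 4 gained one and 263 kept both sign and side of the threshold, members never called included.

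Comparisons with heart-gate cells rest on 3 plates. At this depth a member that did not pass is not shown to be equal.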
